A study of Mus musculus with 12 samples.

Results

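Transcripts of 31 genes that build meiotic chromosomes and carry out meiotic recombination were followed in cultured mouse germline stem cells, to describe which of them were already transcribed in these cells and how the cell lines differed. The genes were chosen by name, for their known roles in meiosis, and all 31 were found among the 26219 genes of the deposited table. By role, 4 belong to the central region of the synaptonemal complex, 5 to the chromosome axis, 5 to cohesin, 4 to the making of double-strand breaks, 5 to strand exchange and 7 to crossover formation, and 1 is a transcription factor of spermatocytes. The study profiled 6 cell lines in 12 libraries by SC3-seq, a method for small inputs that reads mRNA at the 3′ end after cDNA amplification, here from 1 ng of total RNA per library. Values are in RPM, the reads of a gene scaled to the same total in each library, and are not divided by transcript length because each transcript is read at its 3′ end.

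GSC_1 and GSC_2 are lines of germline stem cells (GSCs), spermatogonial stem cells expanded in culture, each from its own testes at postnatal day 7. GSCLC_1 to GSCLC_4 are lines of germline stem cell-like cells (GSCLCs) from reconstituted testes. GSCLC_1 and GSCLC_4 came from testes cultured throughout the 3 weeks at 34°C (condition 1). For GSCLC_2 and GSCLC_3 the first 2 weeks of culture were at 37°C and the last 1 week at 34°C (condition 2). All 6 lines carried the AcrAct_EGFP reporter on the C57BL/6 x 129/SvJcl background and were grown in the same medium with GDNF, bFGF, LIF and EGF. Each line gave 2 libraries, labelled as biological replicates of the culture. Every GSC line is from postnatal and every GSCLC line from reconstituted testes, so effects of the kind of cell and of the testis it came from cannot be told apart.

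Meiosis pairs homologous chromosomes and exchanges DNA between them before they separate. Cohesin and axis proteins organise each chromosome into loops along a core, programmed DNA breaks are made and repaired on the homologous partner, and the synaptonemal complex zips the paired cores together while some repair sites mature into crossovers. These steps take place in spermatocytes, whereas spermatogonial stem cells divide by mitosis, but part of the meiotic gene set is known to be transcribed in spermatogonia.

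The RPM steps of the table imply 3031705 to 4644183 counted reads per library, so that 3 reads, the floor used here for detection, correspond to 0.646 to 0.99 RPM. Such a floor accounts for counting error alone, because the cDNA was amplified and its copies were not tagged by molecule. All 17 markers of undifferentiated spermatogonia reached 5 RPM in at least 2 libraries, and the germ cell gene Dazl stood at 1200 to 1559 RPM. All 8 markers of differentiating spermatogonia also reached 5 RPM in at least 2 libraries, and 4 of them in all 12. Their summed level was 554 to 680 RPM in GSC and 537 to 678 RPM in GSCLC libraries. Of 19 markers of spermatocytes outside the 31 genes, 11 passed that filter, and 5 stood at 5 RPM or more in all 12 libraries. The 11 were Piwil1, Ldhc, Hspa2, Mtl5, Insl6, Nxt1, Aurkc, Ybx2, Clgn, Tbpl1 and Ttll1. The summed level of the 19 was 340 to 373 RPM in GSC and 304 to 393 RPM in GSCLC libraries. Among those that did not pass, Pgk2 reached at most 0.856 RPM, Adam3 0.326 RPM and Spata16 1.75 RPM. Of 15 markers of spermatids 3 passed, and Prm1, Prm2, Tnp2, Acrv1, Gapdhs and Catsper1 were listed at 0 in all 12 libraries. Markers of other testis cells were uneven. The summed level of 9 Leydig and peritubular markers ran from 33.4 to 134 RPM in GSC and from 13 to 51.5 RPM in GSCLC libraries, that of 12 Sertoli cell markers from 37.3 to 147 and from 32.9 to 126 RPM, and that of 13 fibroblast markers from 468 to 1077 and from 434 to 724 RPM. In such bulk libraries, fewer cells of a type and less RNA per cell cannot be told apart. Which cells of a line held the transcripts of the 31 genes was not tested.

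Most meiotic genes were already transcribed in every line. Of the 31 genes 24 (77.4%) stood at 5 RPM or more in all 12 libraries, against 34.9% of all genes of the table. The 24 hold all 4 central region genes, all 5 axis genes, all 5 strand exchange genes, 4 of 5 cohesin genes, Mei1 and Mei4 of the break machinery, Hfm1, Ccnb1ip1 and Tex11 of crossover formation and the transcription factor gene Dmrtc2. Rad21l, Prdm9, Spo11 and Mlh3 did not reach 5 RPM in any library, and Msh4, Msh5 and Rnf212 did so in part of the libraries. By line, the count of genes with 5 RPM in both libraries was 27 in GSC_2 and GSCLC_1, 26 in GSC_1, GSCLC_3 and GSCLC_4 and 25 in GSCLC_2. Over all 6 lines the count was 28 at 1 RPM, 20 at 10 RPM and 29 at 3 counted reads. Levels spanned a wide range, from the central element gene Syce2 at 275 to 469 RPM down to the break-forming gene Spo11 at 0 to 2.37 RPM. A gene's RPM here also depends on how well its 3′ end is captured, so the order of genes is an order of 3′ reads.

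**Figure D1:**
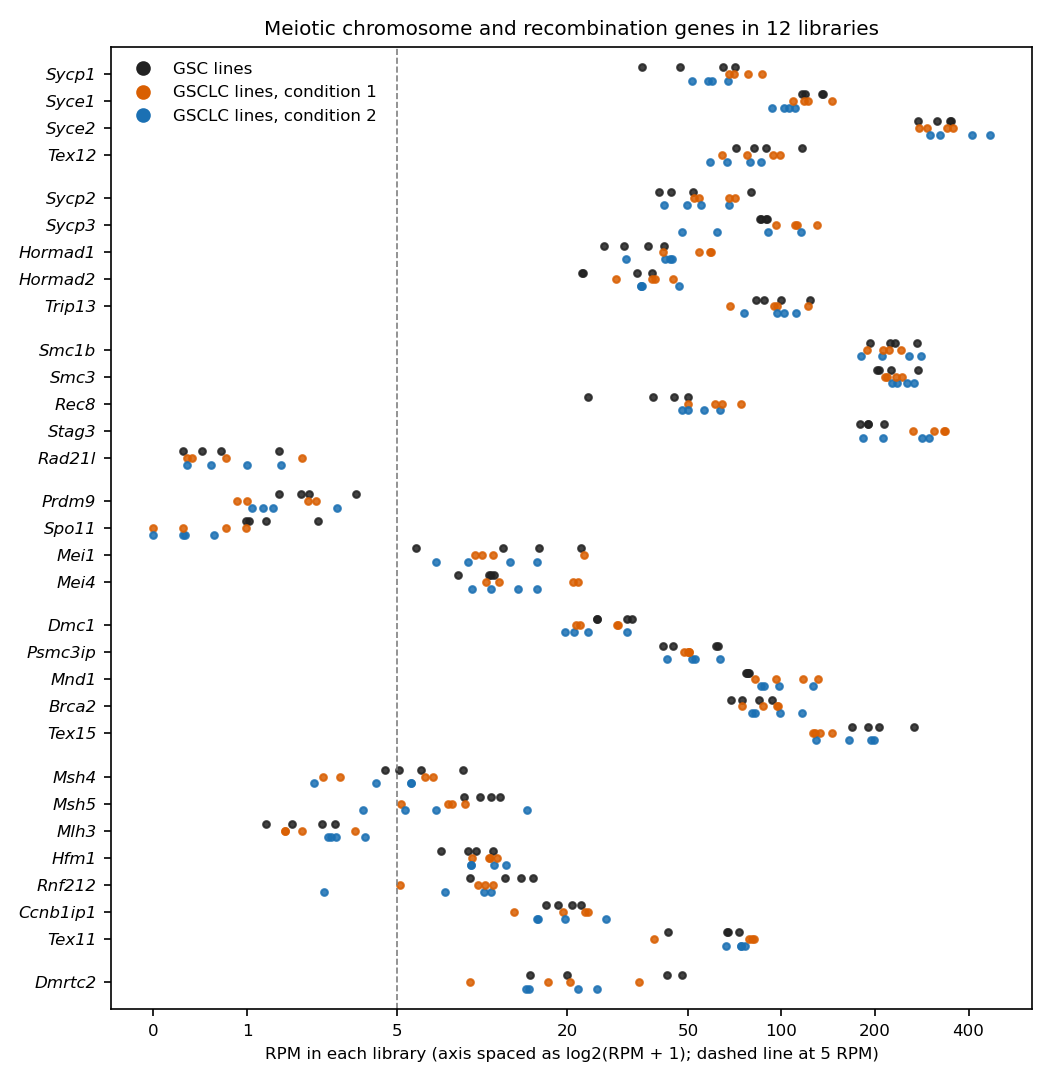
RPM of the 31 genes in each of the 12 libraries, by role from top to bottom (central region, axis, cohesin, breaks, strand exchange, crossovers, transcription factor), on an axis spaced as log2(RPM + 1). Each point is a library, coloured by kind and condition of the line; Rad21l, Prdm9, Spo11 and Mlh3 lie left of the dashed 5 RPM line in all libraries, and 24 genes lie right of it in all libraries.

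The 250 bases before each annotated RefSeq transcription start were read on build GRCm38.p6, where 28 of the 31 genes matched. They were searched on both strands for 3 motifs named for regulators of germ cell genes. For Brca2, Hfm1, Mei1, Msh4, Msh5, Rad21l and Stag3 the only window lies within the annotated span of the gene itself. The shares below thus include sequence from inside genes. GCGGGA, the core bound by the repressor E2F6, was found in 14 of 28 genes (50%), against 18.8% of all 27025 genes of that table and 35.9% of the 9176 among them with at least 5 RPM in 2 libraries. CACGTG, the E-box bound by MGA and MAX, was found in 6 genes (21.4%), against 6.86% and 10.6%. CNCCTCAG, the motif of the meiotic activators STRA8 and MEIOSIN, was found in 5 genes (17.9%), against 7.39% and 8.86%. The 6 windows below show genes with and without matches on which the later results turn: the axis genes Sycp3 and Hormad1, the central element gene Syce2, the strand exchange gene Mnd1, and Rad21l and Prdm9, which were near the detection floor. They run 5′ to 3′ on the strand of the gene, with motif matches in capitals, and are cut before any annotated exon base inside them. They lie at chr10:88459337-88459568 (plus strand) for Sycp3, chr3:95559427-95559676 (plus) for Hormad1, chr8:84871861-84872110 (plus) for Syce2, chr3:84155787-84156036 (minus) for Mnd1, chr2:151668534-151668783 (minus) for Rad21l and chr17:15564355-15564604 (minus) for Prdm9.
Sycp3: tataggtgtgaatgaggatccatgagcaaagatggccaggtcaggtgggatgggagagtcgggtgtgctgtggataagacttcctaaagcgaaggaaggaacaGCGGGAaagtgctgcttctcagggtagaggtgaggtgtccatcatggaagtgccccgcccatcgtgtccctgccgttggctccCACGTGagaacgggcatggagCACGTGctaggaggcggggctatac
Hormad1: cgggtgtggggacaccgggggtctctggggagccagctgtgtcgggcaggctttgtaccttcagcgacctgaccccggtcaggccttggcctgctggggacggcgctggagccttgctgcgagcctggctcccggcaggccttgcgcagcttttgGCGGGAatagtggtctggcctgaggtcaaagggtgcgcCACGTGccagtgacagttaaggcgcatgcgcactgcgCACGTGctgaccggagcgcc
Syce2: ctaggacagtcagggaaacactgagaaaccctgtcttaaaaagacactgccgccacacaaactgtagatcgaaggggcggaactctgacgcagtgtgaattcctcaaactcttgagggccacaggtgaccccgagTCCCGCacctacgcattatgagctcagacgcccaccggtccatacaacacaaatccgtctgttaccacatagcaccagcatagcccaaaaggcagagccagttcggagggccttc
Mnd1: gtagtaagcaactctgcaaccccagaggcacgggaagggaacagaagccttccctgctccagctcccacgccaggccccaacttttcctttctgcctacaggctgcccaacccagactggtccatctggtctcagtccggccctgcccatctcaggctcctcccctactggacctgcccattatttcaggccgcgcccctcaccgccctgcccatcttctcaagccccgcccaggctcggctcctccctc
Rad21l: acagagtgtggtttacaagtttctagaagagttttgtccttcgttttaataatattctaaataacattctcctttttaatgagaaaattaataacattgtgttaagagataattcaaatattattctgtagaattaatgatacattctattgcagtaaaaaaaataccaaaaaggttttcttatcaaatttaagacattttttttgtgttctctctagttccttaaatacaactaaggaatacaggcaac
Prdm9: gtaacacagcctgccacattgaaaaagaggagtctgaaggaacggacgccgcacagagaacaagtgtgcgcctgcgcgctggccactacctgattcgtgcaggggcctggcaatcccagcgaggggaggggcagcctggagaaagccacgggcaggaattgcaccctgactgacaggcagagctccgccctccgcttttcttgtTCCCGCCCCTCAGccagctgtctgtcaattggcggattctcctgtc

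The windows of Sycp3 and Hormad1 each hold 1 GCGGGA and 2 CACGTG, and no CNCCTCAG. Those of Syce2 and Prdm9 hold GCGGGA on the other strand, read as TCCCGC, and in Prdm9 it overlaps the start of a CNCCTCAG match. Syce2 has another annotated start, whose window (chr8:84872008-84872257) also holds CACGTG and CNCCTCAG and 24 CpG, against 11 CpG in the window shown. Prdm9 also has another annotated start (window chr17:15563332-15563581). That window holds GCGGGA but no CNCCTCAG, and 9 CpG against 13 in the window shown. The windows of Mnd1 and Rad21l hold none of the 3 motifs, although Mnd1 was read at 77.3 to 132 RPM and Rad21l at 0.246 to 2.00 RPM. The Rad21l window lies inside the annotated span of its gene (chr2:151644366-151670622, minus strand). Its CpG count and lack of motifs may therefore not describe a promoter. It holds 1 CpG. The median was 15.5 over the 32 windows of the 28 genes and 6.0 over all windows of the table. It was 16.0 over windows of genes with at least 5 RPM in 2 libraries. A match is a description of the letters, not a measured binding site.

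In the central region of the synaptonemal complex, all 4 genes were read in every library, and Syce2 was the highest of all 31 genes by median. Sycp1, which encodes the transverse filament that bridges the paired axes, had 35.5 RPM as its lowest, 66.2 as its median and 86.9 as its highest value over the 12 libraries. Syce1, Syce2 and Tex12 encode central element proteins that join the filaments in the middle, and SYCE2 and TEX12 form one complex. Syce1 ranged from 93.8 to 146 RPM (median 118) and Tex12 from 59.2 to 117 RPM (median 80.4). Syce2 (gene 71846, chr8:84872111-84887446) stood at 349 and 351 RPM in GSC_1, 275 and 317 in GSC_2, 294 and 342 in GSCLC_1, 302 and 324 in GSCLC_2, 409 and 469 in GSCLC_3, and 357 and 278 in GSCLC_4. Both libraries of GSCLC_3 were above all other libraries.

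On the chromosome axis, Sycp3 differed between lines in a way that cut across the GSC and GSCLC groups. SYCP2 and SYCP3 form the axial and later lateral elements, HORMAD1 and HORMAD2 mark axes that have not synapsed, and the ATPase TRIP13 removes the HORMADs as synapsis proceeds. Sycp3 (gene 20962, chr10:88459587-88473236) was read at 86.1 and 90.2 RPM in GSC_1, 85.4 and 89.3 in GSC_2, 96.2 and 113 in GSCLC_1, 131 and 111 in GSCLC_4, 47.9 and 62.3 in GSCLC_2, and 91.0 and 116 in GSCLC_3. GSCLC_2 was thus the low line, below all other libraries, while the other line of condition 2 was at 91.0 RPM or more. Hormad1 was read at 26.6 to 41.7 RPM in GSC libraries, at 59.1 and 59.3 RPM in GSCLC_1 and at 31.3 to 54.4 RPM in the other GSCLC libraries, so that libraries of the groups overlapped. Sycp2 ranged from 40.1 to 80.2 RPM (median 53.4), Hormad2 from 22.5 to 46.6 RPM (median 35.3) and Trip13 from 68.4 to 124 RPM (median 97.2).

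Among cohesin genes, the meiotic subunits Smc1b and Stag3 were read at 180 RPM or more in all libraries, whereas the kleisin Rad21l was near the floor. Cohesin is a ring of an SMC pair closed by a kleisin and bound by a STAG subunit. Stag3 (gene 50878, chr5:138272514-138312397), the STAG subunit of meiotic cohesin, was read at 214 and 191 RPM in GSC_1, 180 and 190 in GSC_2, 266 and 310 in GSCLC_1, 333 and 336 in GSCLC_4, 298 and 283 in GSCLC_2, and 183 and 213 in GSCLC_3. It was high in 3 GSCLC lines, while GSCLC_3 lay among the GSC libraries. Rec8 (gene 56739, chr14:55618002-55625395), the kleisin that holds sister chromatids together until anaphase, was read at 49.9 and 45.0 RPM in GSC_1, 38.6 and 23.5 in GSC_2, 50.2 and 74.2 in GSCLC_1, 61.4 and 64.7 in GSCLC_4, 63.4 and 47.7 in GSCLC_2, and 56.3 and 50.1 in GSCLC_3. GSC_2 was the low line for Rec8, and GSC_1 overlapped the lowest GSCLC library. Smc1b, the meiotic SMC1 subunit, ranged from 181 to 281 RPM (median 224) and Smc3, which is used in all cohesins, from 204 to 276 RPM (median 231). Rad21l, a kleisin of early meiotic prophase, was read at 0.246 to 2.00 RPM, which is 1 to 8 implied reads, and reached 3 reads in 5 of 12 libraries.

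The mitotic counterparts of these subunits were present in the same libraries. Smc1a stood at 87.6 to 152 RPM beside Smc1b at 181 to 281 RPM, and Stag1 at 125 to 191 and Stag2 at 32.5 to 60.8 RPM beside Stag3 at 180 to 336 RPM. For the kleisins the order was the other way, with Rad21 at 501 to 668 RPM, Rec8 at 23.5 to 74.2 RPM and Rad21l at 2.00 RPM or less. In these pairs, the ranges over the 12 libraries overlapped for Stag3 with Stag1 and for no other.

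**Figure D2:**
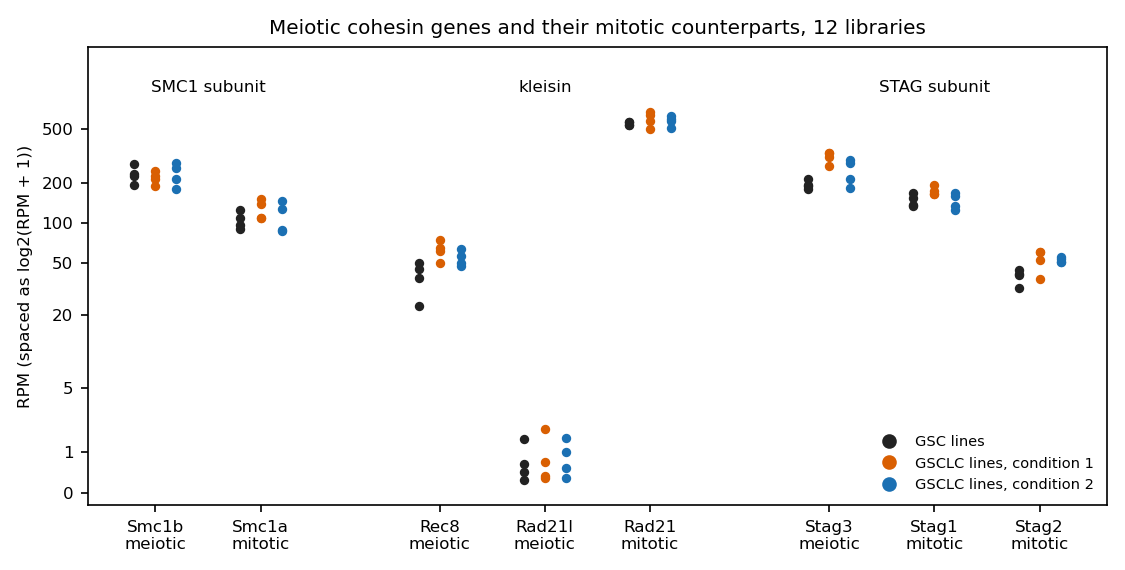
RPM of meiotic cohesin genes and their mitotic counterparts in each of the 12 libraries (points), on an axis spaced as log2(RPM + 1), coloured by kind and condition of the line. Rad21 lies above Rec8 and Rad21l in all libraries; levels are 3′ reads and are not divided by length.

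Of the 4 genes that start recombination, Spo11 and Prdm9 were near the detection floor, and Mei1 and Mei4 were above 5 RPM in all libraries. SPO11 makes the double-strand breaks, PRDM9 marks their sites by methylating histones, and MEI1 and MEI4 are needed for the breaks to form. Spo11 was read at 1.3 and 2.37 RPM in GSC_1, 0.985 and 1.02 in GSC_2, 0 and 0.709 in GSCLC_1, 0.25 and 0.99 in GSCLC_4, 0.251 and 0 in GSCLC_2, and 0.565 and 0.27 in GSCLC_3, which is 0 to 11 implied reads. It reached 3 reads in 6 libraries, all 4 GSC libraries among them, but it did not pass the filter for the tests. With no filter, or one of 1 RPM in 2 libraries, all 31 genes were tested and Spo11 did not pass between the groups. Prdm9 ranged from 0.856 to 3.45 RPM, or 3 to 14 reads, and so was detected in all 12 libraries without reaching 5 RPM. Mei1 ranged from 5.91 to 22.8 RPM (median 11.6). Mei4 (gene 75033, chr9:81863670-82206007) was read at 21.0 and 21.8 RPM in GSCLC_4 and at 8.40 to 15.8 RPM in the other 10 libraries, so that both GSCLC_4 libraries were above all others.

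All 5 strand exchange genes were read in every library. Dmc1, the meiotic recombinase, ranged from 19.7 to 32.9 RPM (median 25.1), and Psmc3ip, whose product pairs with MND1 to stimulate DMC1, from 41.6 to 63.7 RPM (median 50.5). Brca2, which loads recombinases in mitotic and meiotic cells, ranged from 68.9 to 117 RPM (median 86.3). Mnd1 (gene 76915, chr3:84087933-84155798) was read at 77.3 and 78.8 RPM in GSC_1, 77.5 and 78.1 in GSC_2, 132 and 118 in GSCLC_1, 96.2 and 82.5 in GSCLC_4, 88.5 and 127 in GSCLC_2, and 86.5 and 98.7 in GSCLC_3. All 4 GSC libraries were close together and below all 8 GSCLC libraries. Tex15 (gene 104271, chr8:33516689-33592503), needed to load recombinases at meiotic breaks, was read at 268 and 169 RPM in GSC_1, 206 and 190 in GSC_2, 134 and 129 in GSCLC_1, 146 and 127 in GSCLC_4, 195 and 130 in GSCLC_2, and 165 and 199 in GSCLC_3. Condition 1 lines were below all GSC libraries, and condition 2 lines overlapped them.

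Crossover genes were uneven. Tex11, an X-linked gene whose product helps recombination sites mature, was the highest at 38.8 to 81.9 RPM (median 73.7), followed by the ubiquitin ligase gene Ccnb1ip1, also known as Hei10, at 13.2 to 26.9 RPM (median 19.5). The DNA helicase gene Hfm1 ranged from 7.32 to 12.4 RPM (median 10.3). Rnf212, whose product marks sites that become crossovers, ranged from 2.51 RPM in GSCLC_2 replicate 1 to 15.3 RPM in GSC_1 replicate 1 . MSH4 and MSH5 form a clamp that stabilises recombination intermediates, and their genes ranged from 2.26 to 8.80 RPM and from 3.68 to 14.6 RPM. Mlh3, whose product resolves crossovers late in prophase, ranged from 1.3 to 3.76 RPM, or 4 to 15 implied reads. Dmrtc2, a DM-domain factor of pachytene spermatocytes, ranged from 9.27 to 47.9 RPM (median 20.2), and its replicates differed widely in both GSC lines, with 47.9 and 20.0 RPM in GSC_1 and 15 and 42.9 RPM in GSC_2.

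The first comparison asked whether these genes differed between GSCLC and GSC lines. None of the 27 genes with at least 5 RPM in 2 or more libraries passed the threshold, against 356 of all 11788 genes tested (3.02%; 1.21% higher and 1.81% lower in GSCLC lines), in a limma fit on line means of log2(RPM + 1), 4 lines against 2, with Benjamini-Hochberg adjusted p and a threshold of 0.05. At an unadjusted p under 0.05 there were 7 of 27 (25.9%), against 16.9% of all genes. Of these 5 were higher, against 7.99% of all genes, and 2 lower, against 8.93%. Rec8 averaged 39.2 ± 11.6 RPM over the GSC lines against 58.5 ± 4.86 RPM over the GSCLC lines (SD, n = 2 and 4 lines), a log2 difference of 0.60 ± 0.19 (SE) with limma adjusted p = 0.12. Stag3 stood at 194 ± 12.4 and 278 ± 57.1 RPM (0.49 ± 0.18, limma adjusted p = 0.18) and Mnd1 at 77.9 ± 0.159 and 104 ± 16.4 RPM (0.39 ± 0.16, limma adjusted p = 0.227). The axis genes Hormad1 (0.45 ± 0.20) and Hormad2 (0.39 ± 0.16) had limma adjusted p = 0.276 and 0.248. In the other direction, Tex15 averaged 208 ± 14.4 RPM over GSC against 153 ± 23.7 RPM over GSCLC lines (-0.44 ± 0.15, limma adjusted p = 0.144) and Dmrtc2 at 31.5 ± 3.56 and 19.7 ± 5.81 RPM (-0.58 ± 0.26, limma adjusted p = 0.284).

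Line means of log2(RPM + 1) did not overlap between the groups for 10 of 27 genes (37.0%), against 28.6% of all genes tested. Hormad1, Hormad2, Rec8, Mei4, Mnd1 and Hfm1 had higher log2 means in all 4 GSCLC lines (6 of 27, 22.2%, against 13.8%), and Syce1, Tex15, Rnf212 and Dmrtc2 had lower ones (4 of 27, 14.8%, against 14.9%). Taken as means of RPM, Hfm1 (10.2 RPM in GSC_2, 10.1 in GSCLC_1) and Syce1 (GSCLC_4 between GSC_1 and GSC_2) overlapped, so their place depends on the scale. The median log2 difference of the 27 was 0.06, against -0.01 for all genes, and the differences ran from -0.61 for Rnf212 to 0.60 for Rec8. For 21 of the 27 the 95% interval of the difference lay within 2-fold in either direction, and for Rec8, Mei4, Msh4, Msh5, Rnf212 and Dmrtc2 it reached beyond. A p that misses the threshold does not show that the groups were alike. The summed level of the 31 genes was 2223 ± 151 RPM over GSC against 2340 ± 43.2 RPM over GSCLC lines (SD, n = 2 and 4), with 2549 RPM in GSC_1 replicate 1 as the highest library and 2016 RPM in GSC_2 replicate 1 as the lowest. By role, the summed cohesin genes stood at 693 ± 24.3 and 800 ± 76.9 RPM, and the summed crossover genes at 123 ± 7.97 and 125 ± 6.23 RPM.

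Line GSCLC_3 decided 2 of these calls. Without it, with 3 GSCLC lines against 2 GSC lines, Stag3 was higher in GSCLC lines (0.65 ± 0.12, limma adjusted p = 0.0126) and Tex15 lower (-0.53 ± 0.13, limma adjusted p = 0.0415), while the count over all genes went from 356 to 533. Over their 31 alternative settings, limma adjusted p ran from 0.0126 to 0.739 for Stag3 and from 0.027 to 0.558 for Tex15, and Rec8, Mnd1, Hormad1, Hormad2 and Dmrtc2 passed in none. The Leydig and peritubular markers were highest in replicate 1 of both GSC lines; without these 2 libraries 0 of the 27 genes and 284 of all genes passed, and the part of such cells in the values was not tested further.

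**Figure D3:**
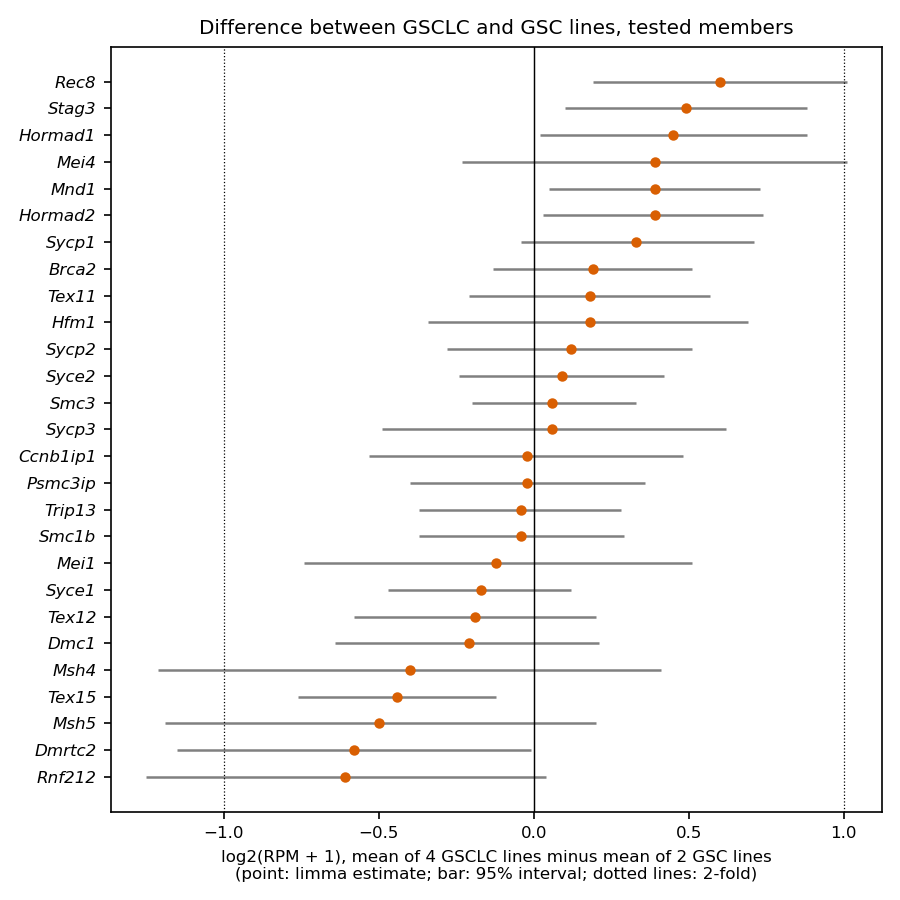
Log2(RPM + 1) difference between the mean of 4 GSCLC lines and the mean of 2 GSC lines for the 27 genes tested, as the limma estimate (points) with its 95% interval (bars), sorted by size. Estimates run from -0.61 for Rnf212 to 0.60 for Rec8, and none had an adjusted p under 0.05; dotted lines mark a 2-fold difference.

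The second comparison set condition 2 lines against condition 1 lines, that is, the first 2 weeks of testis culture at 37°C against 34°C. None of the 27 genes passed, and neither did any of the 11788 genes tested (0.00%), by limma over line means. At an unadjusted p under 0.05 there were 2 of 27 (7.41%), against 552 of all genes (4.68%). These were Sycp3, at -0.58 ± 0.25, and Tex15, at 0.34 ± 0.14 (log2, condition 2 minus condition 1), both with limma adjusted p = 0.933. Within condition 2, Sycp3 was read at 47.9 and 62.3 RPM in GSCLC_2 and at 91.0 and 116 RPM in GSCLC_3, beside 96.2 to 131 RPM in condition 1.

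The third comparison asked where single lines differed. A limma F test over the 12 libraries compares the 6 lines against the spread between culture replicates, so its p-values speak for these cultures and not for other lines of a kind. Of the 27 genes 4 passed (14.8%), against 20.0% of all genes tested, a share below the background. The genes were Stag3, with a range of 0.85 between line means on the log2 scale (limma adjusted p = 0.000368), Sycp3 (1.13, limma adjusted p = 0.00208), Rec8 (1.04, limma adjusted p = 0.0235) and Mnd1 (0.68, limma adjusted p = 0.0418). The median range between line means was 0.63 for the 27 genes and 0.67 for all genes. The median SD between culture replicates, as moderated by limma and so drawn towards a common trend, was 0.24 and 0.25. Hormad1, Tex15 and Syce2 lay just above the threshold, with limma adjusted p = 0.0514, 0.0544 and 0.0559.

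Stag3 and Sycp3 passed in all 23 alternative settings. Rec8 lost its call without GSC_2 replicate 2, at 23.5 RPM its lowest library (limma adjusted p = 0.278), with no filter (0.118) and with no mean-variance trend (0.123). Mnd1 lost it without GSC_1 replicate 1 or 2 (limma adjusted p = 0.0666 and 0.0624), GSC_2 replicate 1 or 2 (0.089 and 0.0886) and GSCLC_1 replicate 1 or 2 (0.184 and 0.0934), and also with no filter (0.111) and no mean-variance trend (0.152). Other genes passed only when a library was left out or a setting was changed, among them Tex15 in 9 and Hormad1 in 5 of 23 settings. Tex11 passed without GSCLC_4 replicate 2 (limma adjusted p = 0.0178), which leaves the 38.8 RPM of replicate 1 as that line's only value. Sycp1 passed without GSC_1 replicate 1 (limma adjusted p = 0.0356), Tex12 without GSC_1 replicate 2 (limma adjusted p = 0.0311) and Rnf212 without GSCLC_2 replicate 2 (limma adjusted p = 0.0376).

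Each line was then set against the mean of the other 5. Of the 27 genes, 0 passed in GSC_1, 2 in GSC_2, 0 in GSCLC_1, 1 in GSCLC_2, 2 in GSCLC_3 and 3 in GSCLC_4, while of all genes tested 4.59%, 6.98%, 0.348%, 3.30%, 9.24% and 9.29% passed in these lines. In GSC_2, where 3.07% of all genes were lower, Rec8 was lower by -0.86 ± 0.18 on the log2 scale (limma adjusted p = 0.00646) and Stag3 by -0.47 ± 0.11 (limma adjusted p = 0.00997). In the same line 11 of 12 tested fibroblast markers passed, 10 higher (from 0.56 for Fn1 to 2.11 for Col3a1) and Twist1 lower (-0.82), and their part in the Rec8 and Stag3 values was not tested. In GSCLC_4, where 6.13% of all genes were higher, Stag3 was higher by 0.55 ± 0.11 (limma adjusted p = 0.0036), Mei4 by 0.88 ± 0.23 (limma adjusted p = 0.0238) and Sycp3 by 0.50 ± 0.14 (limma adjusted p = 0.0266). In GSCLC_2, where 1.70% were lower, Sycp3 was lower by -0.86 ± 0.14 (limma adjusted p = 0.00141). In GSCLC_3, where 3.01% were higher and 6.23% lower, Syce2 was higher by 0.46 ± 0.11 (limma adjusted p = 0.0138) and Stag3 lower by -0.36 ± 0.11 (limma adjusted p = 0.0419). The 6 contrasts share libraries, so a line that is high lowers the values of the others.

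With 1 library left out, each of these calls for the meiotic genes was lost without at least 1 library of the line in question. Rec8 in GSC_2 went to limma adjusted p = 0.325 without GSC_2 replicate 2, and Stag3 in GSC_2 to 0.164 and 0.111 without replicate 1 or 2. Stag3 in GSCLC_4 went to 0.058 and Sycp3 in GSCLC_4 to 0.308 without GSCLC_4 replicate 1, and Mei4 to 0.188 and 0.134 without replicate 1 or 2. Sycp3 in GSCLC_2 went to 0.151 without GSCLC_2 replicate 1, and Syce2 in GSCLC_3 to 0.218 without GSCLC_3 replicate 2. Stag3 in GSCLC_3 was lost in 10 of 18 settings, with limma adjusted p up to 0.347 without GSCLC_3 replicate 1. A line left with 1 library was assumed to vary like the others.

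**Figure D4:**
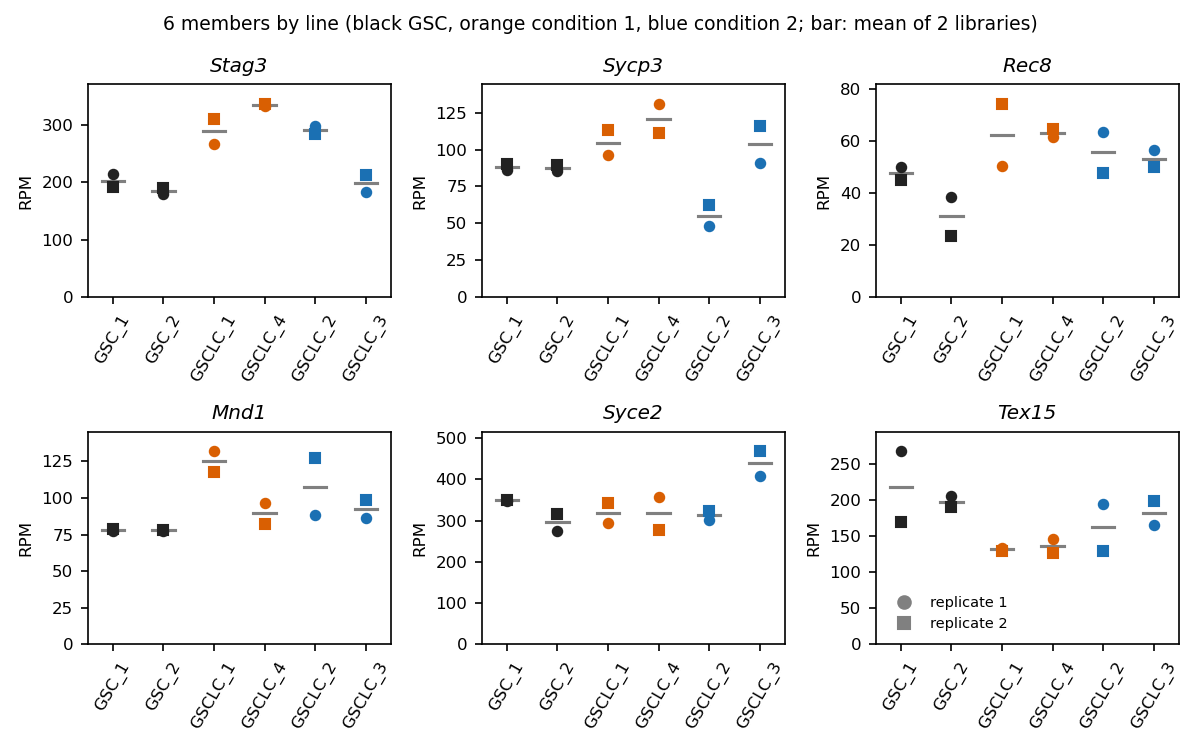
RPM of Stag3, Sycp3, Rec8, Mnd1, Syce2 and Tex15 in the 6 lines, with replicate 1 as circles, replicate 2 as squares and the mean of both as a bar; all axes start at 0. Stag3 was lowest in GSC_2, Sycp3 in GSCLC_2 and Rec8 in GSC_2, Mnd1 was lower in all 4 GSC libraries than in all 8 GSCLC libraries, and Syce2 was highest in GSCLC_3.

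The position of the genes moved with some of these differences. All genes together were shifted in 2 lines, with a median log2 difference of -0.09 in GSCLC_3 and 0.09 in GSCLC_4 against the other lines, and with scaling that removes such shifts Stag3 in GSCLC_3 (-0.27 ± 0.11, limma adjusted p = 0.123) and Sycp3 in GSCLC_4 (0.41 ± 0.14, limma adjusted p = 0.0718) no longer passed. In GSCLC_3 the 631 tested genes of chromosome 8, which holds Syce2 and Tex15, had a median log2 difference of 0.40, whereas the medians of the other chromosomes were below 0. Syce2, at 0.46, lay at percentile 57.5 of the genes of chromosome 8 in that line, and Tex15, at 0.14 ± 0.16, at percentile 21.2. With the median of each chromosome set equal across lines, Syce2 in GSCLC_3 was 0.10 ± 0.12 with limma adjusted p = 0.686. In the same fit Tex15 was lower in GSCLC than in GSC lines (-0.59 ± 0.13, limma adjusted p = 0.027). Whether the shift of chromosome 8 sets the Tex15 and Syce2 values was not tested beyond this fit.

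**Figure D5:**
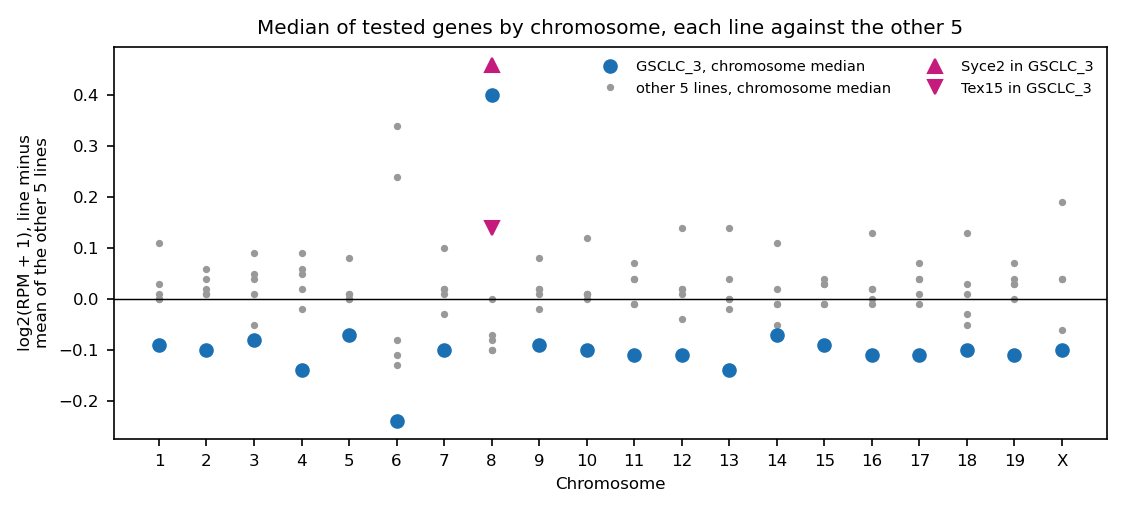
Median log2(RPM + 1) difference of the tested genes of each chromosome between a line and the mean of the other 5 lines, with GSCLC_3 as large blue points and the other 5 lines as small grey points. In GSCLC_3 chromosome 8 stands at 0.40 while its other chromosomes lie below 0; triangles show Syce2 (0.46) and Tex15 (0.14) of chromosome 8 in that line.

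The 3′ ends that SC3-seq reads are not unique for all genes, and no source used here says if strand entered the counting. In GENCODE vM21, the end of Sycp3 overlaps exons of Chpt1 on the other strand. Chpt1 was read at 14.4 to 39.6 RPM and was 39.4 and 26.9 RPM in GSCLC_2, where Sycp3 was lowest, and 39.6 and 26.4 RPM in GSCLC_4, where Sycp3 was highest. The end of Psmc3ip overlaps Mlx on the other strand. Ends share a stretch of 40 bases or more with a pseudogene for Sycp1 and Mnd1, with predicted genes for Hormad1, with Arpc1b for Mei4, with Ugt3a1 for Prdm9 and with Rpph1 for Ccnb1ip1. Among the 5 annotated coding transcripts of Stag3, at least 1 end shares such a stretch with other genes. The levels of these genes are uncertain to that extent. The part of shared ends in the line differences was not tested.

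Other gene groups around meiosis are given beside all genes tested. Of all genes, 1.21% rose and 1.81% fell in GSCLC against GSC lines, and 20.0% passed the F test among lines. A list of other meiotic genes had 35 tested genes, of which 0 rose and 2 fell in GSCLC against GSC lines (median -0.02, against -0.01 for all genes). Tdrd9, a helicase of the piRNA pathway, was read at 13.8 to 43.6 RPM in GSC and 0.251 to 9.16 RPM in GSCLC libraries (log2 -2.76 ± 0.53, limma adjusted p = 0.0193). Tex19.1, a germ cell gene that restrains retrotransposons and whose end is shared with Tex19.2, was read at 81.0 to 147 and 16.5 to 61.7 RPM (-1.54 ± 0.36, limma adjusted p = 0.0413). Every GSCLC library was below every GSC library for both genes. Among lines, 7 of the 35 (20.0%) passed the F test, with Tex19.1, Tdrd9, Mael, Hspa2, Fkbp6 and Psma8 at the smallest p. Mael, another piRNA pathway gene, stood at 234 and 244 RPM in GSCLC_2 and at 557 and 565 RPM in GSCLC_3. The central element gene Syce3 was read at 55.1 to 105 RPM, close to Tex12.

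Of 17 tested regulators of meiotic entry, 0 rose and 1 fell in GSCLC against GSC lines, beside 1.21% and 1.81% of all genes. Cyp26a1, an enzyme that degrades retinoic acid, was read at 6.03 to 12.4 RPM in GSC and 0.66 to 3.01 RPM in GSCLC libraries (-1.67 ± 0.35, limma adjusted p = 0.0277). It passed the filter of 5 RPM through the GSC libraries alone, where it is high, so its call is not read as support for a group difference. Stra8, the retinoic acid target that starts the meiotic program, ranged from 2.97 to 21.4 RPM and was lowest in GSCLC_3, at 5.09 and 2.97 RPM (line minus others -1.52 ± 0.32, limma adjusted p = 0.00545). Sohlh1, a spermatogonial transcription factor gene, stood at 27.6 to 65.8 RPM in GSC libraries and between 1.25 RPM in GSCLC_2 and 51.5 RPM in GSCLC_3 among GSCLC libraries. With Stra8, Sohlh1 and Cyp26a1, Sohlh2 was the fourth of the 17 to pass the F test (limma adjusted p = 0.0161). This share was 23.5%, against 20.0% of all genes. Of 15 tested mitotic cohesin genes 0 passed between the groups and 1 among lines (6.67%, against 20.0% of all genes), Smc1a (limma adjusted p = 0.0256). Smc1a was lower in GSCLC_3 (-0.42 ± 0.13, limma adjusted p = 0.0465) and higher in GSCLC_4 (0.43 ± 0.13, limma adjusted p = 0.0398). The median of all genes was shifted the same way in these lines, by -0.09 and 0.09. In GSC_2, where Stag3 was lowest, Smc1a did not pass. Of 30 tested genes of homologous recombination shared with mitosis, 0 passed between the groups and 3 (10.0%) among lines, among them Top3a and Fancd2.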

How the data were processed

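The authors deposited 1 table of RPM for 26219 genes and 12 libraries. The submitters' processing notes name the build mm10 (GRCm38) and, as tools, TopHat 1.4.1, Cufflinks 2.2.0 and cutadapt 1.3. No source used here gives their settings or the use of strand. Columns were assigned to samples by title. RPM sum to 999885 to 999962 per library. Between 99.7% and 99.8% of values above 0 were whole multiples of 1 step within 0.1, but 30 to 43 values per library were not, so reads were not taken as recovered and no count-based test was run.

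The test took genes that reached 5 RPM in 2 or more libraries, as log2(RPM + 1), a scale that understates changes of low genes, with limma 3.58.1 in R 4.3.3 (moderated variances with a mean-variance trend, two-sided, Benjamini-Hochberg adjustment over all 11788 genes). The line, as the mean of its 2 libraries, was the unit between groups. Single libraries were the unit among lines, where p-values measure the spread between culture replicates only. The fit for the 2 conditions included the GSC lines, which share its spread. The fits were tested on simulated data. All 31 genes are named. Of the other gene lists, genes past the threshold between groups or among lines are named, at most 6 by smallest p for a list, with exceptions that are not reported here. Marker lists are given mainly by level, and further genes were chosen after their values were seen. The genes and lists were chosen with earlier results of these data known. Alternatives covered the pseudocount, the filter, scaling, the trend, each library or line left out and a replicate block. Setting chromosome medians equal and leaving out replicate 1 of both GSC lines were chosen after seeing the data. 3′ ends were compared over the last 300 bases of coding transcripts in GENCODE vM21. Promoters came from RefSeq (GRCm38.p6), with 250 bases before each start.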

Additional observations from a re-analysis of the deposited data

Results flagged for a closer look

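Syce2 was high in 1 of the 4 GSCLC lines. Its line mean was 439 RPM in GSCLC_3 and 313 to 318 RPM in the other 3 GSCLC lines, and the gap between GSCLC_3 and the nearest line took up 0.958 of the whole range, above Dixon's 95% critical value for 4 values. All 27 tested genes were checked in this way and 1 stood out, where chance flags about 1 in 20 groups. Syce2 lies on chromosome 8, whose tested genes had a median log2 difference of 0.40 in GSCLC_3 against the other lines.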

How the results depend on the processing

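Among the alternatives run, no result that passed a threshold changed direction; near-zero differences between GSCLC and GSC lines of 10 genes changed sign without passing. The count of 24 genes with 5 RPM in all lines ran from 20 to 29 with other cut-offs and from 24 to 25 with 1 library left out. Between GSCLC and GSC lines, the count over all genes was 356 and became 142 with no filter, 114 and 178 on replicate 1 or 2 of each line alone, and 13 to 533 with 1 library or line left out (13 without GSC_2, 41 without GSC_1); among the 27 genes it was 0, 1 with chromosome medians set equal and 0 to 2 with 1 left out. Between conditions, 1 gene passed on replicate 2 alone and 0 to 11 with 1 left out. Among lines, the count over all genes was 2362 and became 1181 with no filter, 1334 with no mean-variance trend and 1631 to 2505 with 1 library left out. For the 27 genes it was 2 with no trend, 7 with chromosome medians set equal and 2 to 7 with 1 library left out. With no filter, where all 31 genes were tested, it was 2. For single lines, chromosome medians set equal gave 1 gene in GSC_1 (Tex15) and 0 in GSCLC_3, both other scalings gave 1 in GSCLC_3, and leaving out 1 library gave 0 to 1 in GSC_1, 0 to 2 in GSC_2, 0 to 1 in GSCLC_2, 0 to 2 in GSCLC_3 and 0 to 3 in GSCLC_4. The cause was not tested, beyond the fewer samples or other genes of each fit.

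The replicate numbers did not pair the libraries: over the 15 pairs of lines, the correlation of deviations ran from -0.12 to 0.11, with 2 pairs over 0.1. With a replicate block, and the line as a random effect between groups, 592 genes and 0 of the 27 passed between groups, and 2435 genes and 5 of the 27 among lines, the fifth being Tex15. A count-based alternative was planned only if whole reads could be recovered, and was not run. Rad21l, Spo11, Prdm9 and Mlh3 rest on 0 to 15 implied reads per library, which limits the precision of any difference in them, and only 2 GSC lines were measured.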

Other observations

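The PRC1.6 complex, a repressor that holds germ cell genes off in other cells, had 13 tested genes. Of these 0 passed between GSCLC and GSC lines, beside 3.02% of all genes, and 2 among lines (15.4%, against 20.0% of all genes). These were Rybp (limma adjusted p = 0.00762) and Tfdp1 (limma adjusted p = 0.0112), a subunit and a binding partner of E2F factors. Of 20 genes of the G2 phase and mitosis 0 passed between the groups and 3 among lines, the mitotic kinase genes Plk1 and Aurkb and Birc5, a subunit of the same complex as Aurkb. The median log2 difference of these 20 genes between GSCLC and GSC lines was 0.09, beside 0.06 for the 27 meiotic genes and -0.01 for all genes.

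Of 17 markers of undifferentiated spermatogonia 0 rose and 2 fell in GSCLC against GSC lines, beside 1.21% and 1.81% of all genes. The 2 were the transcription factor genes Bcl6b (-0.98, limma adjusted p = 0.00451) and Lhx1 (-1.83, limma adjusted p = 0.00458). The median log2 difference of the 17 was -0.12, against -0.01 for all genes. Among lines, 7 of the 17 (41.2%) passed the F test, against 20.0% of all genes.

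Of 11 tested markers of spermatocytes outside the meiotic gene set 1 rose and 0 fell, beside 1.21% and 1.81% of all genes. Their median log2 difference was 0.00, with 6 above 0. In the F test among lines 4 of the 11 (36.4%) passed, against 20.0% of all genes. Mtl5, also known as tesmin, was higher in GSCLC lines (log2 1.39 ± 0.30, limma adjusted p = 0.0324), whereas Ybx2 had -1.03 and did not pass. Mtl5 was read at 0.431 to 5.87 RPM in GSC and 5.77 to 11.3 RPM in GSCLC libraries, so that the libraries overlapped by 1 value on each side. All its GSCLC libraries were past the filter of 5 RPM, while its GSC libraries lay near or below that level, which limits this call.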
